A study of Mus musculus with 4 samples.

Results

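DNA replication and origin licensing genes encode the proteins that mark replication origins, load and fire the helicase, copy both strands, supply nucleotides and restore chromatin behind the fork. A set of 55 such genes was examined in a deposited count table of 23874 mouse genes. The set was chosen by name from a list of S-phase machinery, with earlier results of these data known. Shares of all tested genes printed beside the set are therefore a description and not a test. All 55 were found by symbol, and all 55 passed the filter on low counts. The samples were engineered neural tissues, in which neurospheres (free clusters that neural stem cells and progenitors form in suspension) were set in Matrigel, a basement membrane gel, under DMEM/F12 medium with N2, B27 and 20 ng/ml human bFGF, a mitogen of these cells. In the EF group the tissue was stimulated electrically on 3 days, for 30 min each day at 150 mV/mm, and then stayed 7 days in culture. The noEF group had the same gel and medium and no field according to its labels, whereas the series design speaks of cell suspensions as the control. Each group is represented by 2 libraries here, EF 1 and EF 2 against noEF 1 and noEF 2, of the 3 replicates per group that the labels state. The sources used here do not give the mouse strain, the age or the origin of the cells. Nothing in the labels says that replicates came from separate cultures, so the p-values measure the spread between these libraries, which may be technical.

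Before a cell can copy its DNA, the origin recognition complex, Cdc6 and Cdt1 load paired rings of the Mcm2-7 helicase onto chromatin, a step called licensing. In S phase, Cdc45 and the GINS complex join the helicase, polymerase alpha-primase starts each strand, and polymerases epsilon and delta extend them while held by the ring-shaped clamp Pcna. Many of the genes for these proteins are transcribed at the G1/S boundary under E2F transcription factors, and in neural stem cell cultures their transcripts are used as signs of dividing cells.

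Library totals ranged from 33748880 to 34554537 counts. Levels are given in CPM, counts scaled to a common library size, here with TMM factors. Stem and progenitor markers were present in every library, with Sox2 at 291 to 380 CPM and Nes at 115 to 135 CPM. Of 6 microglia and macrophage markers, 5 (Ptprc, Aif1, Cx3cr1, Csf1r and Tyrobp) were at 0 counts in all libraries. Across all 14263 tested genes, edgeR called 546 higher and 712 lower in EF at an adjusted p under 0.05, so 43.4% of the calls were higher. With library totals in place of TMM, 69.3% of the calls were higher.

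The replication genes were mostly more abundant after the electric field. Of the 55 genes, 26 were called higher in EF by edgeR and 0 were called lower, where the background over all tested genes is 3.83% called higher and 4.99% called lower. At an unadjusted p under 0.05, 39 of the 55 were higher and 1 (Rpa3) lower by edgeR, where 11.3% and 12.5% of all tested genes were. The number lower at that p was 1 by limma-voom, 0 by DESeq2 and 2 without noEF 2. The fitted change was positive for 52 of 55 genes, against 51.1% of all tested genes, with a median log2 fold change of 0.47 against 0.01 over all tested genes. In 49 of the 55 genes both EF libraries were above both noEF libraries, a pattern shown by 27.6% of all tested genes. In 2 genes, Gins4 and Rpa3, both EF libraries were below, against 26.8% of all tested genes, and in 4 (Orc1, Orc4, Orc5 and Rpa1) the groups overlapped.

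Together the 55 genes held 30.0 and 28.9 of every 10000 counts in the EF libraries, and 19.9 and 20.3 in the noEF libraries. The replicates lay close to each other: the largest ratio between replicates of a group was 1.38, for Prim1 in noEF, and the median ratio was 1.08. Neither EF library carried the pattern alone, since 27 genes were highest in EF 1 and 24 in EF 2, and 26 were lowest in noEF 1 and 25 in noEF 2. Without EF 1, EF 2, noEF 1 or noEF 2, the number called higher was 19, 21, 22 and 23, each of them also called with all 4 libraries. RNA from bulk tissue does not distinguish more cells in S phase from more RNA of these genes per cell.

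**Figure D1:**
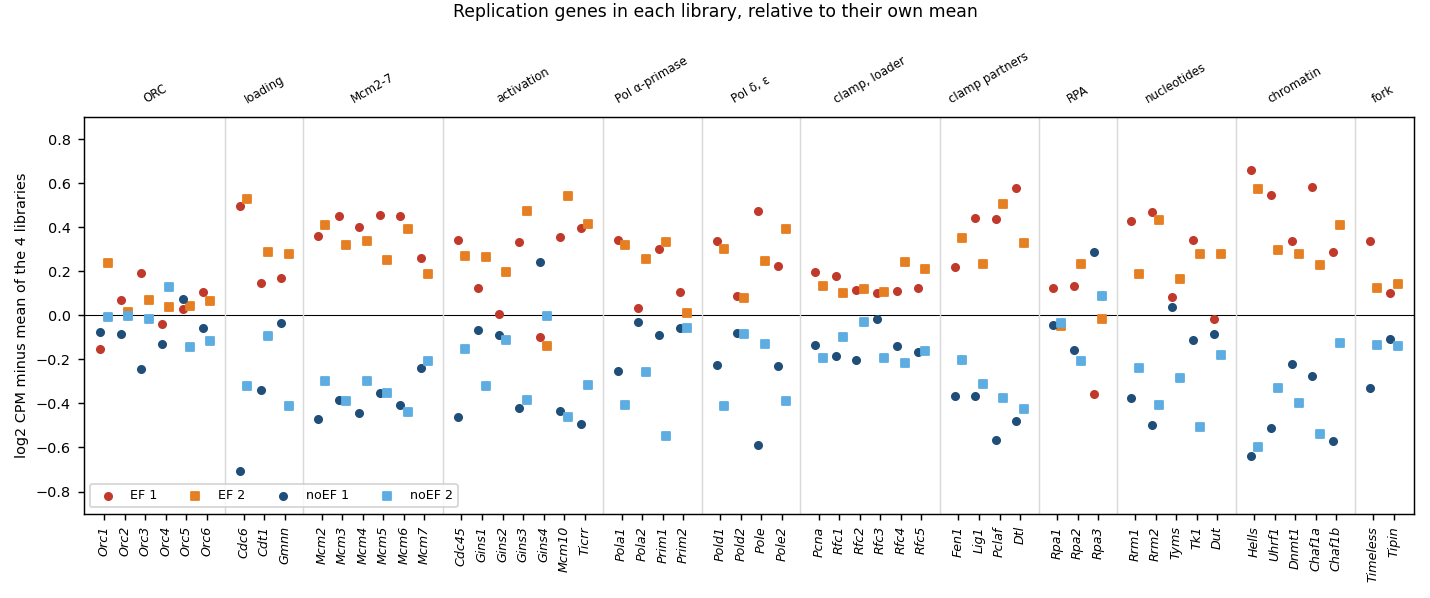
Each point is a library's log2 CPM for a replication gene minus that gene's mean over the 4 libraries, with genes on the x axis grouped by complex (EF 1 red circles, EF 2 orange squares, noEF 1 dark blue circles, noEF 2 light blue squares). Points of the EF libraries sit above those of the noEF libraries in 49 of 55 genes and below them in Gins4 and Rpa3. The groups overlap in Orc1, Orc4, Orc5 and Rpa1.

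Promoter sequences were read for the same genes, since many of them moved together. RefSeq windows of 300 bases on GRCm38.p6, from 250 before to 50 after a transcription start, were found for 46 of the 55 genes (57 windows). An E2F-type site was searched as TTTGGCGC, TTTCGCGC, TTTCCCGC or TTTGCCGC on either strand, and matches that overlap on opposite strands were counted separately. It occurred in 19 of the 57 windows (33.3%), against 3.78% of 13516 windows of tested genes and 2.26% of all 32851 windows. Counted by gene, 13 of 24 genes called higher (54.2%) and 6 of 22 not called (27.3%) had a match, against 4.62% of tested genes. By window the shares were 41.9% of 31 and 23.1% of 26. In Dnmt1, Lig1, Mcm7 and Uhrf1 the match was in only some of the windows. Without a window were Mcm4 and Pole among called genes, and Gins1, Gins2, Gins4, Gmnn, Prim2, Rfc2 and Tipin among those not called. The genes were chosen as S-phase machinery, much of it under E2F, so a share above that of tested genes comes with the choice. The gap between called and not called genes was not tested. The CCAAT box, searched as CCAAT on either strand, was in 57.9% of the replication gene windows and in 37.7% of the windows of tested genes. The cell cycle homology element TTTGAA of genes expressed in G2 and mitosis was in 10.5% and 11.8%. These letters describe the windows and do not show that a factor binds.

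The 200 bases before the RefSeq start are printed for 4 genes, 5′ to 3′ along the gene, with E2F-type and CCAAT matches of either strand in capitals. Mcm6 has the most E2F-type matches of the set, Dtl a single match that ends at the start, Rrm2 no match despite the smallest p of all 55 genes, and Orc3 a match although it was not called.
Mcm6, GRCm38 chr1:128359706-128359905, minus strand: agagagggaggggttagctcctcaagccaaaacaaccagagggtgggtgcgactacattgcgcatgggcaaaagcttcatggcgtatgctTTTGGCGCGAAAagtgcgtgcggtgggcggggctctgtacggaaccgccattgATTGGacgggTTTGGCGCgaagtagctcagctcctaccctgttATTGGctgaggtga
Dtl, GRCm38 chr1:191575545-191575744, minus strand: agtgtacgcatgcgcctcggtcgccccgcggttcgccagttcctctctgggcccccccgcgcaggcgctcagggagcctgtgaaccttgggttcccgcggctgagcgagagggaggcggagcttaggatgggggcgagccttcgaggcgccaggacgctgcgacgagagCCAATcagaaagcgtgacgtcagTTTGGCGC
Rrm2, GRCm38 chr12:24708054-24708253, plus strand: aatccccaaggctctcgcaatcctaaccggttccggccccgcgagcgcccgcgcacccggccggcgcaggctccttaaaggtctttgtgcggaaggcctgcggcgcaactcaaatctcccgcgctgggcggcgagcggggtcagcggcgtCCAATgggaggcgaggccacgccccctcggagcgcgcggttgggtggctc
Orc3, GRCm38 chr4:34614943-34615142, minus strand: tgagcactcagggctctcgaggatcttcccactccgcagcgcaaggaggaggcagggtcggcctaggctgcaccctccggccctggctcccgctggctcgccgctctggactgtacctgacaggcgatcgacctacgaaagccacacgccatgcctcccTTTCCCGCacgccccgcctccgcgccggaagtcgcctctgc
With the base before the start as -1, the Mcm6 E2F-type matches begin at -110, -106 and -47, the first pair overlapping on opposite strands, and its CCAAT matches begin at -57 and -14. In Dtl the E2F-type match begins at -8 and the CCAAT match at -31. Rrm2 has a CCAAT match at -50, and Orc3 an E2F-type match at -41.

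The origin recognition complex, which marks origins for licensing, was the largest group with no call. None of its 6 genes passed (edgeR), and their log2 fold changes ran from 0.00 for Orc4 to 0.26 for Orc3. Orc3 was at 31.8 and 29.2 CPM in EF and 23.5 and 27.6 CPM in noEF, so its groups were separate but near (adjusted p = 0.280). Orc1, the subunit whose abundance follows the cell cycle, was the least abundant of all 55 genes in CPM, at 3.08 and 4.07 in EF and 3.26 and 3.42 in noEF. Its groups overlapped, and with a standard error of 0.32 on the log2 scale a change as large as that of the helicase genes was not well resolved at this depth. Orc2, Orc4, Orc5 and Orc6 were at 0.09, 0.00, 0.07 and 0.17 on the log2 scale. Of the Orc2 exon length 29.8% overlaps Nif3l1 on the opposite strand, and the counts may mix the pair because the strand setting is not given. Nif3l1 itself was at 0.13 and not called.

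Among the loading factors, Cdc6, the ATPase that recruits the helicase to the origin complex, rose 2.02-fold. Its level was 17.2 and 17.6 CPM in EF and 7.44 and 9.75 CPM in noEF (log2 fold change 1.02, SE 0.19, edgeR adjusted p = 0.00352). Every EF value was well above every noEF value, and the call held in all 13 alternative settings. Cdt1, which brings the helicase rings to Cdc6, was at 21.5 and 23.7 CPM in EF and 15.3 and 18.2 CPM in noEF and did not pass (log2 fold change 0.43, edgeR adjusted p = 0.0969). Geminin (Gmnn), the inhibitor of Cdt1 that blocks another round of licensing, was at 18.7 and 20.1 against 16.2 and 12.4 CPM (log2 fold change 0.44, edgeR adjusted p = 0.126). The groups of Cdt1 and Gmnn were separate with EF above, as in 27.6% of all tested genes. The Cdt1 to Gmnn ratio per exon length was 0.538 and 0.550 in EF, within the range of 0.443 and 0.682 in noEF. After removal of the trend with gene length and GC content, both passed, at 0.50 (adjusted p = 0.0447) and 0.69 (adjusted p = 0.00986), and Cdt1 also passed with library totals (adjusted p = 0.0401).

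All 6 genes of the Mcm2-7 helicase, the ring that unwinds DNA at the fork, rose in EF. Mcm6 rose most, from 52.1 and 50.9 CPM in noEF to 94.3 and 90.5 CPM in EF (log2 fold change 0.84, SE 0.10, edgeR adjusted p = 1.05e-04). Mcm3 was at 86.9 and 79.2 CPM in EF and 48.7 and 48.5 CPM in noEF, a 1.71-fold difference (edgeR adjusted p = 2.78e-04). Mcm2 was at 89.8 and 92.96 against 50.5 and 57.0 CPM, 1.70-fold (adjusted p = 3.03e-04). In these genes the lowest EF library exceeded the highest noEF library by more than the distance between replicates. Mcm4 was at 103 and 98.7 against 57.5 and 63.6 CPM, 1.67-fold (adjusted p = 3.03e-04). Mcm5 was at 84.9 and 73.6 against 48.5 and 48.5 CPM, 1.63-fold (adjusted p = 7.99e-04). Mcm7 rose least of the 6, 1.36-fold, from 50.2 and 51.4 to 71.0 and 67.4 CPM (log2 fold change 0.45, SE 0.10, adjusted p = 0.0127). Mcm7 missed the threshold without EF 1 (log2 fold change 0.41, adjusted p = 0.121), while the other 5 kept their call in all 13 alternatives.

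The helicase is built from the 6 subunits in equal number, and their transcript levels are set side by side per annotated length. Per kilobase of exon (the union over annotated transcripts), the mean EF levels were 28.1 CPM for Mcm4, 22.1 for Mcm3, 19.9 for Mcm5, 19.8 for Mcm6, 15.6 for Mcm7 and 13.1 for Mcm2. In noEF the order was Mcm4 at 16.9, Mcm3 at 13.0, Mcm5 at 12.1, Mcm7 at 11.5, Mcm6 at 11.04 and Mcm2 at 7.73 CPM per kilobase. The union need not be the length of the transcripts expressed, so the order between genes depends on annotation. Mcm2 has the longest union of the 6, at 6956 bp. In CPM without length its means were 91.4 in EF and 53.8 in noEF, above those of Mcm7 at 69.2 and 50.8. In EF the order of Mcm5 and Mcm6 differed between libraries, at 21.3 and 18.4 for Mcm5 and 20.2 and 19.4 for Mcm6. Mcm3 was at 23.2 and 21.1 in EF and was above Mcm5 within each library of both groups. Mcm7 made up 13.1% and 13.2% of the summed level per length in EF and 15.99% and 15.8% in noEF. Mcm6 made up 16.5% and 16.9% in EF and 15.7% and 14.8% in noEF. Mcm3 made up 18.9% and 18.4% in EF and 18.3% and 17.6% in noEF. The share of Mcm7 was thus lower in both EF libraries, and those of Mcm6 and Mcm3 were higher. The shares of Mcm2, Mcm4 and Mcm5 overlapped between groups. All shares depend on each other, since they add up to the same whole. These differences in share were not tested. Exons of Mcm7 overlap Ap4m1 and Cops6 on the opposite strand over 7.25% and 1.45% of its exon length.

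**Figure D2:**
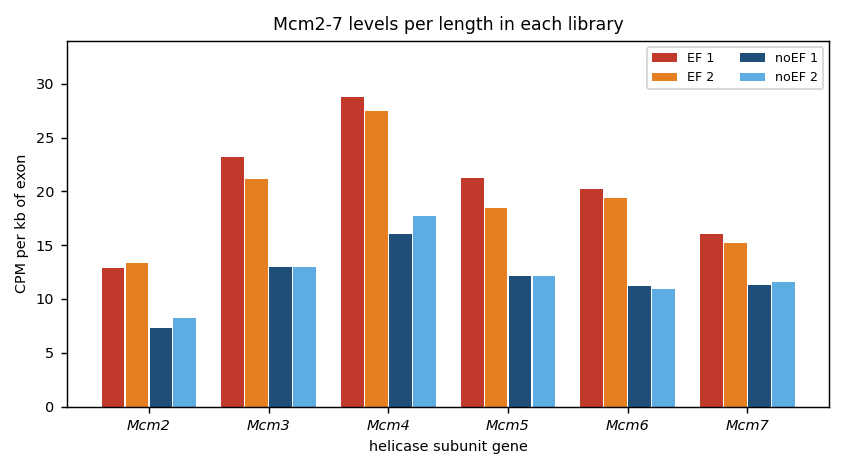
Bars give CPM per kilobase of exon for each Mcm2-7 gene in EF 1, EF 2, noEF 1 and noEF 2, with the axis starting at 0. Both EF bars exceed both noEF bars for each subunit, and the gap is smallest for Mcm7 in fold terms.

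Of the 7 genes that turn the loaded ring into an active helicase, Mcm10 and Cdc45 were called higher in EF. Mcm10, a factor that triggers unwinding, was at 11.7 and 13.4 CPM in EF and 6.76 and 6.63 CPM in noEF (1.87-fold, log2 SE 0.19, edgeR adjusted p = 0.00969). Cdc45, a fixed part of the moving helicase, was at 25.1 and 23.9 against 14.4 and 17.8 CPM (1.52-fold, edgeR adjusted p = 0.0259). It missed the threshold without EF 1 (adjusted p = 0.104), without EF 2 (0.0525) and without noEF 1 (0.167). The 4 GINS genes, whose products form a single complex, gave differing values. Gins3 was at 5.85 and 6.45 against 3.44 and 3.54 CPM, 1.76-fold, and did not pass at this low level (edgeR adjusted p = 0.0722). Gins1 and Gins2 were at 0.38 and 0.20 on the log2 scale. Gins4 had both EF libraries below both noEF libraries, 24.8 and 24.1 against 31.4 and 26.5 CPM, and did not pass (log2 fold change -0.24, edgeR adjusted p = 0.312). Its sign turned when the trend with gene length and GC content was removed (log2 fold change 0.04). Exons of Gse1 on the opposite strand overlap 67.3% of the Gins2 exon length. Gse1 was at 0.12 and not called. Ticrr (treslin), which brings Cdc45 to origins, was at 6.36 and 6.45 against 3.41 and 3.87 CPM, 1.76-fold, and missed the threshold (edgeR adjusted p = 0.0676). Both Gins3 and Ticrr passed with library totals or without the filter on low counts.

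In each of the polymerase complexes the catalytic gene rose, and the partners in the set did not pass. Pola1, the catalytic subunit of polymerase alpha, was at 25.9 and 25.4 CPM in EF and 17.1 and 15.4 CPM in noEF (1.58-fold, edgeR adjusted p = 0.0119). Prim1, the catalytic subunit of primase, was at 22.0 and 22.6 against 16.8 and 12.2 CPM (1.54-fold, adjusted p = 0.0360). Their partners Pola2 and Prim2 were at 0.29 and 0.12 on the log2 scale and did not pass. Pold1, the catalytic subunit of the lagging strand polymerase delta, was at 38.5 and 37.5 against 26.0 and 22.8 CPM (1.56-fold, edgeR adjusted p = 0.00708). Pole, the catalytic subunit of the leading strand polymerase epsilon, was at 20.0 and 17.1 against 9.56 and 13.1 CPM (1.63-fold, edgeR adjusted p = 0.0298). Their partners Pold2 and Pole2 were at 0.17 and 0.62 and did not pass (adjusted p = 0.322 and 0.0841), the fitted fold of Pole2 being close to that of Pole. Pold2 passed at 0.36 with the length and GC trend removed (adjusted p = 0.0218), and Pole2 at 0.71 with library totals (adjusted p = 0.0410). The difference between catalytic and accessory genes was not tested. Prim1 lost its call without EF 1, EF 2 or noEF 2 (adjusted p = 0.0790, 0.0939 and 0.193), and Pole without EF 1 or noEF 1 (adjusted p = 0.153 and 0.181).

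The sliding clamp and its loader moved little in fold. Pcna, the clamp, was the most abundant replication gene in CPM, at 306 and 293 in EF and 243 and 233 in noEF. Its rise of 1.26-fold was the smallest of any called gene of the set (log2 fold change 0.33, SE 0.08, edgeR adjusted p = 0.0219). The call was lost without EF 1 (adjusted p = 0.169), EF 2 (0.05002) or noEF 2 (0.0666). The 5 loader genes Rfc1 to Rfc5 had both EF libraries above both noEF libraries, as 27.6% of all tested genes had. Log2 fold changes of the loader genes ran from 0.21 for Rfc3 to 0.36 for Rfc4, and none passed (edgeR). Rfc1 and Rfc5 passed with library totals (adjusted p = 0.0359 and 0.0432), and Rfc4 at 0.54 with the length and GC trend removed (adjusted p = 0.0174). Exons on the opposite strand overlap 15.1% of Rfc2 (Lat2), 12.7% of Rfc4 (Eif4a2) and 10.7% of Rfc5 (Wsb2).

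All 4 genes for proteins that work on the clamp rose. Pclaf, a small disordered protein that threads through the clamp, was at 85.1 and 89.4 CPM in EF and 42.4 and 48.4 CPM in noEF (1.92-fold, log2 SE 0.10, edgeR adjusted p = 8.1e-05). Dtl, the receptor of the ubiquitin ligase that destroys Cdt1 on the clamp, was at 24.96 and 20.9 against 12.0 and 12.4 CPM (1.88-fold, adjusted p = 0.00271). Lig1, which seals Okazaki fragments, was 1.601-fold higher at 65.8 and 56.9 against 37.6 and 39.0 CPM (adjusted p = 0.00205). Fen1, the nuclease that trims their flaps, was 1.49-fold higher at 31.7 and 34.9 against 21.2 and 23.7 CPM (adjusted p = 0.0172). The calls of Pclaf, Dtl and Lig1 held in all 13 alternatives. Fen1 lost its call without EF 2 or noEF 1 (adjusted p = 0.101 and 0.0670).

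The genes of RPA, the trimer that coats single-stranded DNA in replication and repair, did not move as a unit. Rpa2 was at 48.8 and 52.4 CPM in EF and 39.9 and 38.7 CPM in noEF and just missed the threshold (log2 fold change 0.36, edgeR adjusted p = 0.0579). Rpa1 was at 182 and 162 against 162 and 163 CPM (0.08, adjusted p = 0.643), and its groups overlapped. Rpa3 was at 18.5 and 23.5 against 29.0 and 25.2 CPM, with both EF libraries below (log2 fold change -0.37, adjusted p = 0.155). The 3 subunits occur in equal number in the protein. In the edgeR fit without alternative settings, none of the 3 genes passed. Rpa2 passed in 4 of the 13 alternatives. These were library totals (adjusted p = 0.0177), no filter (0.0257), the filter at 1 CPM in 2 libraries (0.0498) and removal of the length and GC trend (0.0182).

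Of the 5 nucleotide supply genes, 3 were called higher in EF, against 3.83% of all tested genes. All 5 had both EF libraries above both noEF libraries, as 27.6% of all tested genes had. Rrm2, the small subunit of ribonucleotide reductase that is made in S phase, was at 164 and 160 CPM in EF and 83.9 and 89.4 CPM in noEF, 1.87-fold (edgeR adjusted p = 2.71e-05). Rrm1, the large subunit, was at 212 and 180 against 121 and 133 CPM, 1.54-fold (adjusted p = 0.00133). Tk1, the thymidine kinase of dividing cells, was at 32.2 and 30.8 against 23.5 and 17.9 CPM, 1.52-fold (adjusted p = 0.0229). Tk1 lost its call without EF 1 or noEF 2 (adjusted p = 0.0901 and 0.102). Tyms and Dut, which make dTMP and remove dUTP, were at 0.24 and 0.27 on the log2 scale and did not pass (adjusted p = 0.422 and 0.206). Rrm2 and Tk1 have counterparts that cells also make outside S phase, and these did not pass: Rrm2b was at 0.09 (adjusted p = 0.756) and the mitochondrial kinase Tk2 at -0.30 (adjusted p = 0.294). Per exon length, the ratio of Rrm2 to Rrm2b was 20.2 and 20.8 in EF and 11.1 and 12.2 in noEF. The ratio of Tk1 to Tk2 was 1.51 and 1.63 in EF and 0.893 and 0.767 in noEF. Both ratios were separate between groups. Per exon length, Tk1 was above Tk2 in the EF libraries and below it in the noEF libraries. In CPM without length, Tk1 was above Tk2 in every library. The exon union is 5198 bp for Tk1 and 3571 bp for Tk2, so the order of these genes depends on annotation.

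All 5 replication-coupled chromatin genes rose, and they include the largest change of the set. Hells, a chromatin remodeler needed for DNA methylation, rose from 9.77 and 10.1 CPM in noEF to 24.1 and 22.7 CPM in EF (2.36-fold, log2 fold change 1.24, SE 0.16, edgeR adjusted p = 2.64e-04). Uhrf1, which recognises hemimethylated DNA behind the fork, was at 56.2 and 47.3 against 27.0 and 30.6 CPM (1.80-fold, adjusted p = 0.00113). Dnmt1, the maintenance methyltransferase that Uhrf1 recruits, was at 91.8 and 88.1 against 62.3 and 55.04 CPM (1.53-fold, adjusted p = 0.00166). These 3 genes of methylation upkeep kept their call in all 13 alternatives. Chaf1a and Chaf1b, subunits of the chaperone that places histones on new DNA, were 1.77-fold and 1.61-fold higher (edgeR adjusted p = 0.00738 and 0.0218). Chaf1a was at 27.6 and 21.6 against 15.2 and 12.6 CPM, and Chaf1b at 23.0 and 25.1 against 12.7 and 17.3 CPM. Chaf1a lost its call without EF 1 (adjusted p = 0.0708) and Chaf1b without EF 2 or noEF 1 (adjusted p = 0.0792 and 0.149). Exons of Ubxn6 on the opposite strand overlap 52.5% of the Chaf1a exon length, and Ubxn6 was at -0.16 and not called. Timeless and Tipin, which form the fork protection complex, were at 0.47 and 0.25 on the log2 scale. Timeless was at 12.2 and 10.5 CPM in EF and 7.65 and 8.77 CPM in noEF (edgeR adjusted p = 0.157). Neither gene passed. Both EF libraries were above both noEF libraries in each, as in 27.6% of all tested genes. Tipin passed with the length and GC trend removed (adjusted p = 0.0473).

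**Figure D3:**
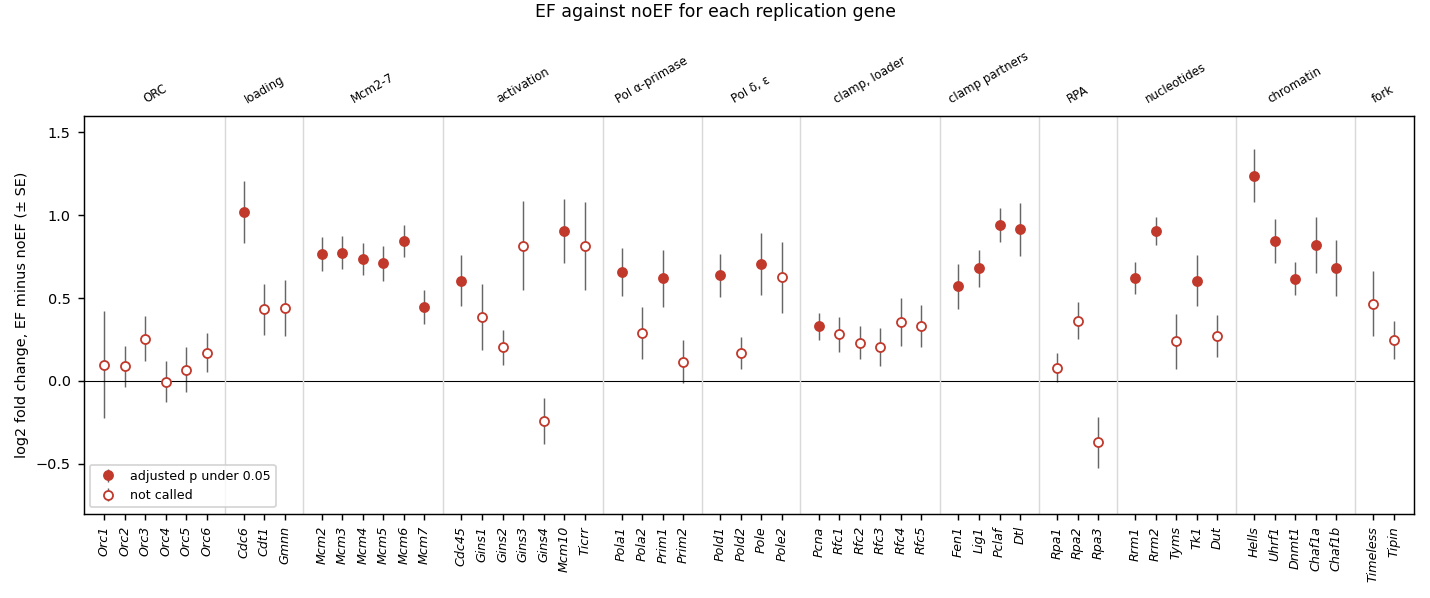
Points give the log2 fold change of each replication gene, EF minus noEF, with bars of 1 SE, and filled points had an edgeR adjusted p under 0.05. All points of the Mcm2-7, clamp partner and chromatin groups are filled, none of the origin recognition, RPA and fork groups is, and Gins4, Rpa3 and Orc4 lie at or below 0, where Gins4 turns positive with the length and GC trend removed.

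The call did not follow the fold change alone. Of the 55 genes, 26 were at least 1.5-fold higher, against 7.86% of all tested genes, and 23 of these were called. The other 3 were Gins3, Ticrr and Pole2, with mean levels below 10 CPM, though Mcm10 was also below 10 CPM and was called. Conversely, 3 called genes (Mcm7, Pcna and Fen1) were under 1.5-fold. The median level was 35.7 CPM among called genes and 27.7 CPM among the rest. Of the 29 genes not called, 26 had a positive fitted change and 13 of those an unadjusted p under 0.05, and Rpa3 was lower at that threshold.

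**Figure D4:**
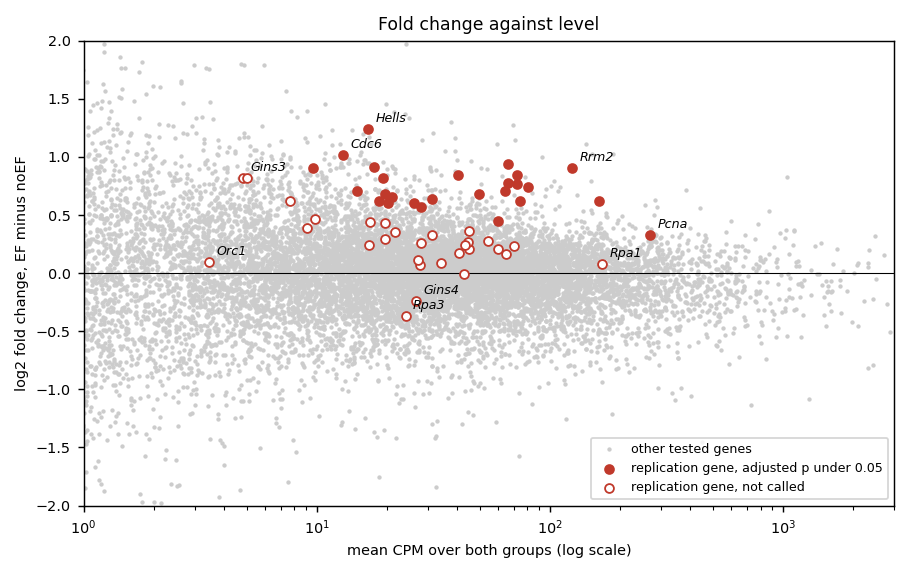
Each replication gene is placed by its mean CPM over both groups (log scale) and its log2 fold change, over other tested genes in grey; 1610 tested genes lie outside the plotted range. Filled points (called by edgeR) and open points (not called) lie mostly above 0 at all levels, with Hells highest at a log2 fold change of 1.24 and Rpa3 lowest at -0.37.

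A further 44 replication genes outside the set were read from a list of other replisome, firing, primer removal, nucleotide and chromatin genes. Of these 12 were called higher and 1 lower, where 3.83% and 4.99% of all tested genes were. The median log2 fold change of the 44 genes was 0.39. Among those with the smallest p, Esco2, the S-phase cohesin acetyltransferase, was higher at 2.15-fold (edgeR adjusted p = 0.00205), the histone chaperone Nasp at 1.438-fold (adjusted p = 0.00442) and the firing factor Topbp1 at 1.48-fold (adjusted p = 0.00453). Topbp1 missed the threshold without EF 1 (adjusted p = 0.0797). The single lower gene, named after its value was seen, was Pold4, the small accessory subunit of polymerase delta. Pold4 was at 20.3 and 26.8 CPM in EF and 48.8 and 35.8 CPM in noEF (log2 fold change -0.84, adjusted p = 0.0170). By group, 3 of 8 firing factors, 4 of 8 chromatin factors, 3 of 10 nucleotide genes, 2 of 13 replisome subunits and 0 of 5 primer removal genes were called higher.

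Other gene groups moved beside the replication genes in the same libraries. The background for the calls below is 3.83% of all tested genes called higher and 4.99% called lower. Of 15 mitotic genes, 13 were called higher, with a median log2 fold change of 0.69 and a summed level of 921 to 981 CPM in EF against 555 to 561 CPM in noEF. Among them, Top2a rose 2.04-fold and Mki67 1.61-fold. Of 8 astrocyte markers, 4 (Gfap, Aqp4, Aldoc and Gja1) were called lower and 0 higher, with a summed level of 5302 to 5570 CPM in EF against 6102 to 6322 CPM in noEF. Slc1a3 made up 40.7% to 53.7% of that sum. The astrocyte markers did not move as a class. Slc1a3 and Aldh1l1 had positive log2 fold changes (0.16 and 0.03), S100b and Slc1a2 were at -0.02 and -0.08, and none of these was called. Of 8 stem and progenitor markers, 1 (Sox1) was called lower and 0 higher, with a summed level of 2738 to 2876 CPM against 3239 to 3255 CPM. Vim made up 79.5% to 80.7% of that sum, while Nes, Pax6 and Msi1 had positive fitted changes and were not called. Of 8 neuron markers 0 were called in edgeR, Stmn2 was at 0 counts, and the summed level was 557 to 582 CPM in EF against 469 to 546 CPM in noEF, 87.7% to 90.8% of it Map2. Of 8 oligodendrocyte lineage markers, Pdgfra was called lower, and the sums overlapped at 2450 to 2797 against 2412 to 2568 CPM, with Olig1 at 80.8% to 82.3% of them. Of 6 endothelial and mural markers Acta2 was called higher, Cdh5 was at 0 counts, and the sum was 6.99 to 11.5 CPM against 5.06 to 5.25 CPM. Acta2 was at 8.68 and 4.84 CPM in EF and 3.13 and 2.88 CPM in noEF. Each of the other 5 had a mean under 1 CPM over the libraries. Of 6 fibroblast markers Pdgfra, shared with the oligodendrocyte list, was called lower, Lum was at 0 counts, and the sum was 26.4 to 30.9 CPM against 35.8 to 45.1 CPM. Pdgfra made up 97.3% to 99.7% of it, and the other 5 markers together were under 1 CPM in each library. Of 5 ependymal markers 0 were called, Tmem212 was at 0 counts, and the sum was 24.01 to 30.1 CPM against 32.9 to 33.98 CPM, of which Foxj1 made up 80.8% to 92.0%. The part of any of these cell types in the difference of the replication genes was not tested.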

How the data were processed

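The authors deposited raw gene counts, which are whole numbers with a different total in each library. Per the submitters' processing notes, which assign no roles, the authors used HISAT2 2.0.4, StringTie 2.2.1, DESeq2 1.44.0 and GRCm38. The sources used here do not give the counting step, annotation or strand setting. In every library fewer genes had 1 count (57 to 76) than 2 counts (239 to 294), so read mates may have been counted singly and counting error may be larger than the counts imply.

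Counts were matched to samples by library name. After filterByExpr (at least 10 counts, total of 15) and TMM scaling, 14263 genes were tested by the quasi-likelihood F test of edgeR 4.0.16 in R 4.3.3, without covariates, with Benjamini-Hochberg adjustment at 0.05. The script was tested on simulated data. The SE is the size of the log2 change over the square root of F. Within groups, a chi-square test of counts gave 17.4 (EF) and 18.3 (noEF) per degree of freedom, so replicates were distinct libraries. Exon lengths, GC content, positions and overlaps came from GENCODE M21, promoters from RefSeq (GRCm38.p6). The 13 alternatives changed the scaling, the filter, the test (limma 3.58.1, DESeq2 1.42.0), the replicate block, the dependence on gene length and GC content (removed per library by offsets fitted with mgcv 1.9.3) and the libraries used.

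The members and lists were chosen with earlier results of these data known. Any of the 55 genes could be named. Values in each library are given for Mcm2-7, the gene with the smallest p in each complex, Pcna, Rrm1, Gmnn, Cdt1, Cdc6 and Orc1. Of the other replication genes, the rule names the 4 with the smallest p, of which 1 is not reported here, Rrm2b and Tk2, and of the context lists Mki67 and Top2a. Other values per library and other context genes were added after they were seen.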

Additional observations from a re-analysis of the deposited data

How the results depend on the processing

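The 0 replication genes called lower stayed 0 under all 13 alternatives, and the number called higher ranged from 19 to 33 around 26. Of the 26, 15 kept their call throughout and 11 lost it at least once, and none of the 55 was called in the opposite direction. Of the 29 not called, 11 passed in at least 1 alternative (Cdt1, Gmnn, Gins3, Ticrr, Pold2, Pole2, Rfc1, Rfc4, Rfc5, Rpa2 and Tipin), and the sign turned in at least 1 for 6 (Orc1, Orc4, Orc5, Gins4, Prim2 and Rpa1). The fitted change was positive for 50 to 53 genes. The median log2 fold change of the 55 genes was 0.55 with library totals and 0.54 with the trend in gene length and GC content removed, with or without the replicate block, and 0.46 to 0.50 when each library was left out. Library totals called 1138 genes higher over the whole table, no filter called 915 higher and 1203 lower, and the replicate block with the trend removed called 271 higher and 393 lower. Leaving out each library gave 217 to 790 higher and 337 to 1065 lower. The cause of these shifts was not tested.

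Same-numbered deviations correlated at -0.09 across genes, and the labels name no shared culture. The replicate numbers come from the sample titles, and an EF library name carries another number than its title. Libraries with the same number therefore need not be pairs, and the correlation cannot decide whether any pairing exists. The replicate block called 410 genes higher and 568 lower, and 25 replication genes, without Pcna (adjusted p = 0.0641). The block with the trend removed called 21 replication genes, 20 of them among the 26. Mcm10, Pola1, Cdc45, Prim1, Pole and Tk1 missed the threshold there (adjusted p = 0.0515, 0.0855, 0.0570, 0.0868, 0.0933 and 0.0588). The trend alone removed called 32, all 26 included. Over the 13 alternatives the adjusted p ran from 9.16e-04 to 0.121 for Mcm7, from 0.00319 to 0.167 for Cdc45, from 4.24e-04 to 0.0515 for Mcm10, from 9.25e-04 to 0.0855 for Pola1, from 0.00276 to 0.193 for Prim1, from 0.00117 to 0.181 for Pole, from 0.0029 to 0.169 for Pcna, from 0.00178 to 0.101 for Fen1, from 8.34e-04 to 0.102 for Tk1, from 2.79e-05 to 0.0708 for Chaf1a, from 5.49e-04 to 0.149 for Chaf1b, from 0.0401 to 0.432 for Cdt1, from 0.00986 to 0.485 for Gmnn, from 0.0397 to 0.218 for Gins3, from 0.0366 to 0.235 for Ticrr, from 0.0218 to 0.676 for Pold2, from 0.041 to 0.272 for Pole2, from 0.0359 to 0.49 for Rfc1, from 0.0174 to 0.426 for Rfc4, from 0.0432 to 0.363 for Rfc5, from 0.0177 to 0.241 for Rpa2, from 0.0473 to 0.464 for Tipin and from 1.12e-05 to 0.0797 for Topbp1. The SE of the log2 fold change was 0.27 for Gins3 and 0.26 for Ticrr, both counted at low depth, against 0.08 for the abundant Pcna.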
